A study of Homo sapiens with 4 samples.

Results

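The SWI/SNF, ISWI and CHD chromatin remodellers were examined in the human gastric cancer cell line SNU638 after knockdown of ACTL6A. The set comprised 41 genes of 19775 on the array, taken as every probe set annotated with exactly 1 symbol of a listed subunit, which gave 139 of 54613 non-control probe sets. Membership was set by complex and by family and used no measured value. The genes were 26 SWI/SNF subunits, 7 ISWI subunits and 8 CHD ATPases. All 41 passed the signal threshold described below and were tested.

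Expression was profiled on 4 single-colour Affymetrix arrays, 2 from sh-ACTL6A cells and 2 from scramble cells. The sh-ACTL6A cells carried a short hairpin RNA (shRNA) against ACTL6A, delivered with a lentiviral pLKO.1 vector and followed by puromycin selection, and the scramble cells carried a scrambled sequence. Both groups were the same SNU638 line, so any result is for 1 line. Neither the hairpin on each sh-ACTL6A array nor the culture behind each array is named in the labels. The p-values are therefore set by array-to-array spread within a group, part or all of which may be technical. RNA was taken from whole cultures, so fewer cells expressing a gene and less RNA per cell cannot be told apart.

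Chromatin remodellers use ATP to slide, evict or exchange nucleosomes, and each complex is built around an ATPase of the SNF2 family. The SWI/SNF (BAF) complexes exist as canonical BAF (cBAF), polybromo-associated BAF (PBAF) and non-canonical BAF (ncBAF), which share a core and differ in a few subunits. ISWI complexes space nucleosomes, and CHD ATPases carry chromodomains. Many subunit positions can be filled by alternative paralogues, and the choice of paralogue changes with cell type in development and in tumours. ACTL6A, also called BAF53A, is an actin-related protein that binds the SWI/SNF ATPase, and it is likewise a subunit of INO80 and TIP60 complexes.

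ACTL6A itself read 10.16 and 10.32 in log2 signal on the sh-ACTL6A arrays, against 11.92 and 11.82 on the scramble arrays. The groups did not overlap, and ACTL6A fell by 1.63 on the log2 scale (SE 0.14, limma adjusted p = 0.0408), which leaves about a 0.323-fold signal. It was the only gene called among 12286 tested. Leaving out scramble replicate 1 or 2 ended that call (adjusted p of 0.9996 and 0.567), as did quantile normalisation (0.0522), no filter on dim genes (0.0797), no intensity trend (0.556), the methods' t-test (0.844) and testing each probe set, while the change stayed between -1.71 and -1.55 in every setting run. Array medians were 5.70 and 5.83 in sh-ACTL6A, against 5.79 and 5.80 in scramble. Over tested genes the root mean square difference was 0.44 between the 2 sh-ACTL6A arrays, 0.37 between the 2 scramble arrays and 0.39 to 0.44 between arrays of different groups. The ACTB 3′ minus 5′ difference, a sign of RNA integrity, was 1.21 and 0.78 in sh-ACTL6A, against 1.63 and 0.78 in scramble, so it was higher on replicate 1 of each group. That of GAPDH was 0.22 and 0.07 in sh-ACTL6A, against 0.29 and 0.10 in scramble. Of 7 gastric epithelial markers, 6 were above the signal threshold (EPCAM, CDH1, KRT8, KRT18, KRT19 and CLDN7). The linear signal summed over all 7, in log2, was 15.3 and 15.5 in sh-ACTL6A and 15.5 and 15.7 in scramble. The change was negative for 5 of the 6 markers above the threshold (median -0.18). KRT18, an epithelial keratin, read 14.12 and 14.28 in sh-ACTL6A and 14.51 and 14.58 in scramble (-0.34, unadjusted p = 0.0041, limma adjusted p = 0.595). The part of this in the member results was not tested. CLDN4 was below the signal threshold. Leukocyte markers were above it for 1 of 4 genes with a probe set (ITGAM). The sum over all 4 was 6.79 and 7.43 in sh-ACTL6A and 7.13 and 6.57 in scramble. Fibroblast and endothelial markers were above the threshold for 3 of 8 genes (COL1A1, DCN and PECAM1). The sum over all 8 was 9.34 and 9.13 in sh-ACTL6A and 9.50 and 9.04 in scramble.

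None of the 41 remodeller genes passed the test in sh-ACTL6A against scramble cells. Limma called 0 members at an adjusted p under 0.05, against a background of 0.00814% of all tested genes, and member adjusted p-values lay between 0.862 and 0.999. At an unadjusted p under 0.05, 0 members were higher and 1 was lower, which is 2.44% of members against 5.5% of all tested genes (3.21% higher and 2.3% lower). The methods' t-test also called 0 members after Benjamini-Hochberg adjustment. The 41 genes had mean log2 signals of 5.89 to 12.59 with a median of 10.05, against a median of 9.54 over all tested genes.

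The sizes of the differences were small. Across members the log2 change (sh-ACTL6A minus scramble) had a median absolute value of 0.11, against 0.14 over all tested genes, and 31 of 41 members differed by less than 0.2. Only 2 members differed by more than 0.5, DPF3 and SMARCE1. The 95% confidence interval lay within a 2-fold difference in either direction for 38 of 41 members (92.7%, against 81.7% of all tested genes), and the exceptions were DPF1, DPF3 and BCL7C. It lay within 1.5-fold for 25 of 41 (61.0%, against 47.4%). For 40 of 41 members the interval included 0.

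More members read above scramble than below it. The change was positive for 26 members and negative for 15, or 63.4% positive against 51.9% of all tested genes, and the member median was 0.09 against 0.01. The sh-ACTL6A arrays were both above the scramble arrays, without overlap, for 13 members (31.7%, against 19.3% of all tested genes) and both below for 3 members (7.32%, against 15.4%). Groups of all tested genes were apart in either direction for 34.6%, and those of members for 16 of 41. On their own, the sh-ACTL6A arrays were both above the scramble mean for 18 members, both below it for 5 and on opposite sides of it for 18. No test was made of these counts, and subunits of a complex are not independent.

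**Figure D1:**
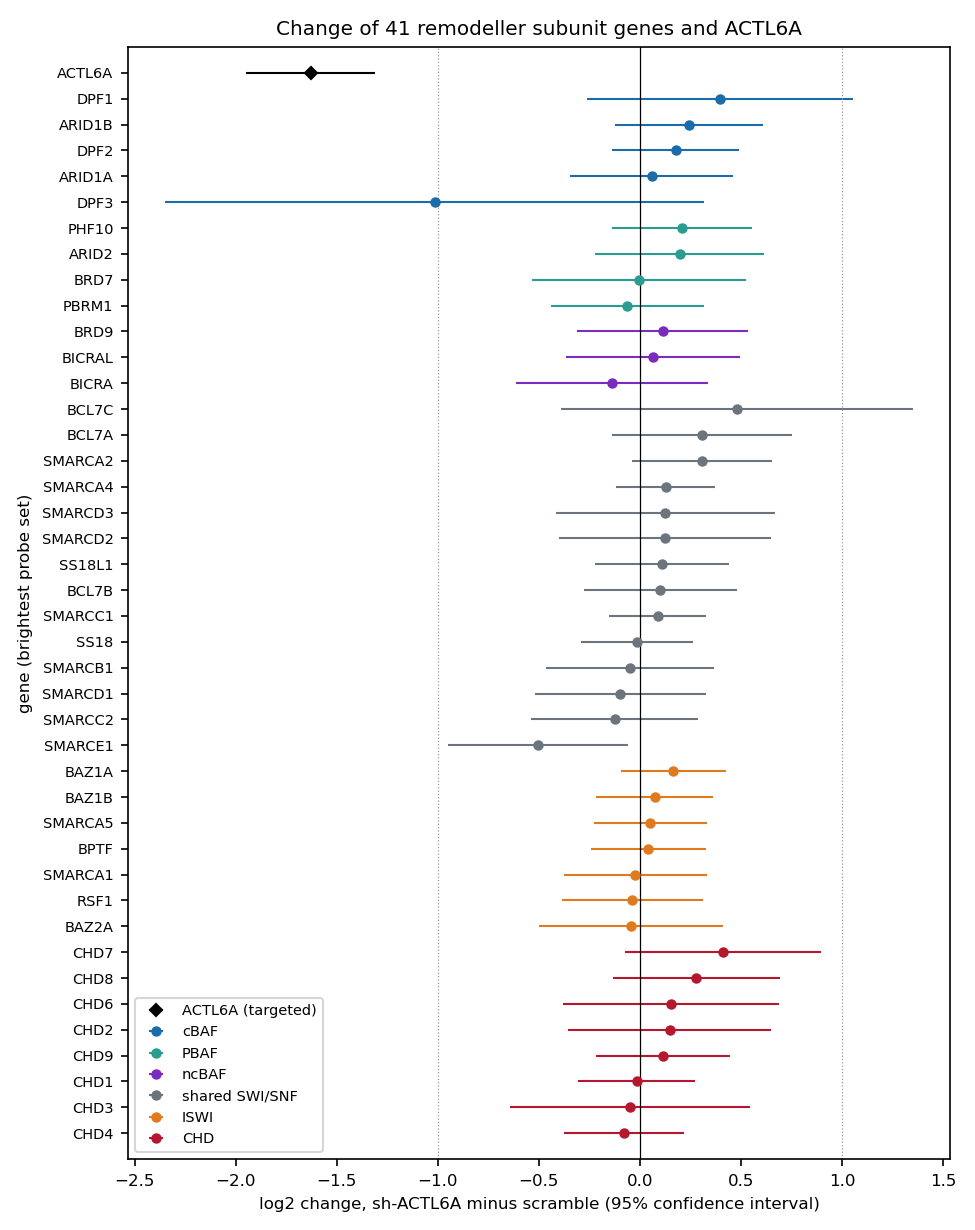
Log2 change (sh-ACTL6A minus scramble, x axis) of ACTL6A and the 41 remodeller genes, coloured by complex class, with limma 95% confidence intervals as bars and a 2-fold difference as dotted lines. Of the 41 members' intervals, 40 cross 0, and SMARCE1, at -0.50, is the exception before adjustment for the number of genes tested.

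For both catalytic ATPases of SWI/SNF, the sh-ACTL6A arrays read above the scramble arrays. SMARCA4 (BRG1), mutated in several tumour types, read 12.45 and 12.43 in sh-ACTL6A and 12.31 and 12.32 in scramble. The groups did not overlap, but the difference was 0.13 (SE 0.11, adjusted p = 0.941). The interval of this 1 probe set, -0.12 to 0.37, lay within 1.5-fold either way. Other bright SMARCA4 probe sets gave 0.08 to 0.34, the highest with an SE of 0.15, so this interval does not stand for the gene. SMARCA2 (BRM), the alternative ATPase of the same position, read 10.22 and 10.37 in sh-ACTL6A and 9.98 and 10.00 in scramble. Both sh-ACTL6A arrays were again above both scramble arrays, by 0.31 on average (SE 0.15, interval -0.04 to 0.65, adjusted p = 0.917). All 5 SMARCA2 probe sets above the threshold were positive, at 0.05 to 0.35, and so were 7 of 8 for SMARCA4, which ranged from -0.43 to 0.54. The lowest and the highest of those for SMARCA4, at mean signals of 5.83 and 5.89, and the lowest for SMARCA2, at 5.84, lie near the threshold. The mean of all SMARCA2 probe sets, dim ones included, was -0.07.

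By their brightest probe sets, the ISWI ATPases stood near scramble. SMARCA5 (SNF2H), the ATPase of ACF, CHRAC, WICH, RSF and NoRC complexes, read 11.65 and 11.62 in sh-ACTL6A and 11.57 and 11.59 in scramble. Its groups did not overlap, at a difference of 0.05 (SE 0.12, adjusted p = 0.972). SMARCA1 (SNF2L), its paralogue, read 11.85 and 11.48 in sh-ACTL6A and 11.69 and 11.69 in scramble, so that the sh-ACTL6A arrays stood on either side of scramble (-0.02, SE 0.15, adjusted p = 0.991). The second SMARCA1 probe set read 11.38 and 11.48 in sh-ACTL6A and 11.19 and 11.18 in scramble. It was higher without overlap, by 0.25 (SE 0.13, limma adjusted p = 0.984). Of the 4 SMARCA1 probe sets above the threshold, 3 were positive and 1 was negative.

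The CHD family was measured for 8 ATPases. CHD7, mutated in CHARGE syndrome, read 11.23 and 10.67 in sh-ACTL6A and 10.69 and 10.39 in scramble. The groups overlapped slightly, and the difference was 0.41 (SE 0.21, interval -0.08 to 0.90, adjusted p = 0.918). Its second probe set read 9.88 and 9.81 in sh-ACTL6A and 9.38 and 9.26 in scramble, a difference of 0.53 without overlap (SE 0.16, unadjusted p = 0.0128, limma adjusted p = 0.976). It stayed between 0.47 and 0.59 with any 1 array left out. A dimmer probe set read 6.65 and 6.65 in sh-ACTL6A and 4.49 and 6.49 in scramble, a difference of 1.16 that comes from 1 low scramble array and is 0.16 without scramble replicate 1. Without sh-ACTL6A replicate 2, the gene-level value of CHD7 was called, at 0.69 (limma adjusted p = 0.0303), and without sh-ACTL6A replicate 1 it stood at 0.13, so the size of that value depends on 1 array. Leaving out sh-ACTL6A replicate 2 takes the residual spread from the scramble arrays alone, and 335 genes in all were called in that setting.

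CHD8, which binds β-catenin, read 9.56 and 9.79 in sh-ACTL6A and 9.27 and 9.53 in scramble. CHD9, related to CHD8, read 10.30 and 10.36 in sh-ACTL6A and 10.25 and 10.19 in scramble. Both were without overlap, by 0.28 (SE 0.18, adjusted p = 0.927) and by 0.11 (SE 0.14, adjusted p = 0.962). All 6 CHD9 probe sets above the threshold were positive, at 0.11 to 0.69, but only 1 was without overlap. The highest, at a mean signal of 5.84, lies near the threshold and was 0.21 without scramble replicate 1. CHD6, of the same subfamily, read 8.72 and 9.34 in sh-ACTL6A and 8.91 and 8.84 in scramble. Its sh-ACTL6A arrays stood on either side of both scramble arrays (0.15, SE 0.23, adjusted p = 0.966), and its other 2 probe sets above the threshold were lower without overlap, at -0.26 and -0.71.

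Among the NuRD ATPases, CHD4 (Mi-2β) read 11.21 and 11.15 in sh-ACTL6A and 11.22 and 11.30 in scramble. By the brightest probe set of each gene, CHD4 was the only CHD member with groups apart downward, by -0.08 (SE 0.13, adjusted p = 0.966). Its other probe sets overlapped, at 0.07 and -0.00055. CHD3 (Mi-2α), its paralogue, read 8.88 and 9.07 in sh-ACTL6A and 8.65 and 9.39 in scramble, with both sh-ACTL6A arrays inside the scramble range (-0.05, SE 0.26, adjusted p = 0.987). CHD1, which binds methylated histone H3 at active genes, read 11.47 and 11.48 in sh-ACTL6A and 11.54 and 11.44 in scramble. It lay within the scramble range as well (-0.02, SE 0.12, adjusted p = 0.994). CHD2, its paralogue, read 9.96 and 10.28 in sh-ACTL6A and 9.70 and 10.25 in scramble, and the groups overlapped (0.15, SE 0.22, adjusted p = 0.965). Of the 4 CHD2 probe sets above the threshold, 1 was positive and 3 were negative. Among the negative ones, 2 were without overlap, at -0.31 and -0.07.

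**Figure D2:**
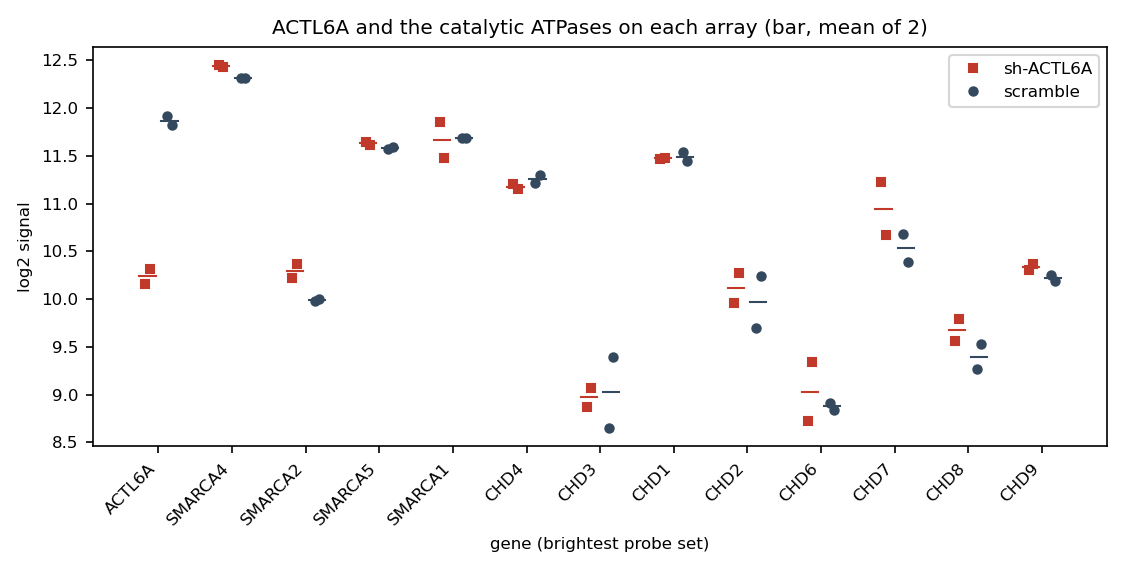
Log2 signal (y axis) of each ATPase and of ACTL6A on the 2 sh-ACTL6A arrays (squares, left) and the 2 scramble arrays (circles, right), with a bar at each group mean. For SMARCA4, SMARCA2, SMARCA5, CHD8 and CHD9 both sh-ACTL6A arrays are above both scramble arrays, and for CHD4 both are below.

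Of the 5 subunits that distinguish cBAF, 2 had both sh-ACTL6A arrays above both scramble arrays, beside 19.3% of all tested genes. So few subunits cannot be set against that share. ARID1B, an ARID subunit that alternates with ARID1A, read 10.26 and 10.20 in sh-ACTL6A and 10.11 and 9.87 in scramble, a difference of 0.24 without overlap (SE 0.16, adjusted p = 0.927). Of its 6 probe sets above the threshold, 4 were positive and 2 negative. DPF2, a PHD finger subunit, read 11.21 and 11.41 in sh-ACTL6A and 11.15 and 11.12 in scramble, also without overlap (0.18, SE 0.14, adjusted p = 0.941).

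By their brightest probe sets, its paralogues DPF1 and DPF3 both overlapped between groups. DPF1, of the neuronal complex, read 7.89 and 7.45 in sh-ACTL6A and 7.02 and 7.53 in scramble (0.40, SE 0.28, adjusted p = 0.932). DPF3, a PHD finger protein known in heart and muscle, read 4.74 and 6.02 in sh-ACTL6A and 6.97 and 5.82 in scramble. The difference was within the spread of its arrays (-1.02, SE 0.57, interval -2.35 to 0.31, adjusted p = 0.918). It had the lowest mean signal of all members, 5.89, close to the threshold of 5.63, and the widest interval. A second DPF3 probe set, at a mean signal of 5.82, was lower without overlap (-0.58, SE 0.39, limma adjusted p = 0.984). ARID1A, the ARID subunit most often mutated in gastric cancer, stood at 0.06 (SE 0.17, adjusted p = 0.976), with the sh-ACTL6A arrays on either side of the scramble mean.

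Of the PBAF subunits, PHF10, a PHD finger protein, read 10.52 and 10.74 in sh-ACTL6A and 10.45 and 10.39 in scramble. The groups did not overlap (0.21, SE 0.15, adjusted p = 0.932), and its second probe set gave 0.24, also without overlap. ARID2, which defines PBAF, read 9.49 and 9.86 in sh-ACTL6A and 9.46 and 9.50 in scramble, and overlapped by 1 array (0.20, SE 0.18, adjusted p = 0.941). The second ARID2 probe set gave 0.39 without overlap, and a dimmer one gave 0.54 with overlap. PBRM1, which carries the bromodomains that name the complex, read 9.34 and 9.52 in sh-ACTL6A and 9.45 and 9.53 in scramble and overlapped (-0.06, SE 0.16, adjusted p = 0.974). BRD7, another bromodomain subunit, was at -0.01 (SE 0.23), with the sh-ACTL6A arrays on either side of scramble. The 4 BRD7 probe sets above the threshold, 2 positive and 2 negative, ranged from -0.35 to 0.39. The lowest and the highest were each without overlap.

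In ncBAF, which lacks ARID and PHD finger subunits, all 3 distinguishing subunits were near scramble. BRD9, its bromodomain subunit, read 10.28 and 9.90 in sh-ACTL6A and 9.88 and 10.07 in scramble (0.11, SE 0.18, adjusted p = 0.966). BICRA (GLTSCR1), the scaffold, read 8.06 and 7.84 in sh-ACTL6A and 8.09 and 8.09 in scramble. Its groups were apart, at -0.14 (SE 0.20, adjusted p = 0.965). BICRAL, its paralogue, read 8.40 and 8.59 in sh-ACTL6A and 8.42 and 8.44 in scramble, and overlapped (0.07, SE 0.19, adjusted p = 0.976).

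Of the subunits found in more than 1 SWI/SNF complex (shared subunits), SMARCE1 (BAF57), an HMG domain subunit, had the lowest unadjusted p of all members. Its brightest probe set read 11.66 and 12.26 in sh-ACTL6A and 12.54 and 12.39 in scramble. Both sh-ACTL6A arrays were below both scramble arrays, by -0.50 on average (SE 0.19, interval -0.95 to -0.06, unadjusted p = 0.0313, limma adjusted p = 0.862). Most of it came from sh-ACTL6A replicate 1: without sh-ACTL6A replicate 2 the change was -0.80 and was called (limma adjusted p = 0.000889), again among 335 genes, and without sh-ACTL6A replicate 1 it was -0.20 and was not, while 401 genes were. The second probe set read 11.75 and 11.78 in sh-ACTL6A and 11.90 and 11.89 in scramble, a difference of -0.13. Of the other 2 above the threshold, 1 was at -0.19 with overlap and 1 at 0.29 without overlap, opposite in sign.

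BCL7A, a small accessory subunit and tumour suppressor in lymphoma, read 8.62 and 8.39 in sh-ACTL6A and 8.23 and 8.18 in scramble. It did not overlap (0.31, SE 0.19, adjusted p = 0.918), and its dimmer probe set gave 0.74, or 0.38 without scramble replicate 1. BCL7B, its paralogue, read 9.92 and 9.71 in sh-ACTL6A and 9.79 and 9.64 in scramble and overlapped (0.10, SE 0.16, adjusted p = 0.966). BCL7C, of the same family, read 9.22 and 10.14 in sh-ACTL6A and 8.72 and 9.68 in scramble. Its arrays spread over more than the difference between groups (0.48, SE 0.37, adjusted p = 0.941).

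The SMARCD subunits (BAF60), which link the complexes to transcription factors, all overlapped. SMARCD1 read 8.77 and 8.99 in sh-ACTL6A and 9.06 and 8.89 in scramble (-0.10, SE 0.18, adjusted p = 0.971). SMARCD2 read 9.82 and 10.41 in sh-ACTL6A and 9.83 and 10.15 in scramble (0.12, SE 0.23, adjusted p = 0.968). SMARCD3 read 9.05 and 8.44 in sh-ACTL6A and 8.63 and 8.61 in scramble (0.13, SE 0.23, adjusted p = 0.971). In both SMARCD2 and SMARCD3 the sh-ACTL6A arrays were on either side of the scramble mean, in opposite orders.

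By the brightest probe sets, the core scaffold was nearly level. SMARCC1 (BAF155) was at 0.09 (SE 0.10) without overlap, and its 4 probe sets were all positive, at 0.09 to 0.38. The highest of them read 11.60 and 11.70 in sh-ACTL6A and 11.12 and 11.42 in scramble (0.38, unadjusted p = 0.0318, limma adjusted p = 0.984), and its difference was 0.23 without scramble replicate 1. SMARCC2 (BAF170), the paralogue of SMARCC1, was at -0.13 (SE 0.18), and its 3 probe sets above the threshold ranged from -0.22 to 0.35. SMARCB1 (BAF47), the subunit lost in rhabdoid tumours, was at -0.05 (SE 0.18). SS18, fused to SSX genes in synovial sarcoma, was at -0.01 (SE 0.12), with all 4 probe sets negative at -0.12 to -0.01. SS18L1, its paralogue, was at 0.11 (SE 0.14) without overlap.

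Among the partners of the ISWI ATPases, BAZ1A (ACF1), of ACF and CHRAC, read 12.18 and 12.24 in sh-ACTL6A and 12.07 and 12.01 in scramble. Its groups were apart by 0.17 (SE 0.11, adjusted p = 0.930), and both of its probe sets were positive and without overlap. BAZ1B (WSTF), of WICH, read 11.36 and 11.36 in sh-ACTL6A and 11.30 and 11.27 in scramble, a difference of 0.07 without overlap (SE 0.12, adjusted p = 0.967). Its dimmer probe set gave 1.57 and overlapped, from 1 low scramble array: it read 6.49 and 6.77 in sh-ACTL6A and 3.55 and 6.57 in scramble.

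BPTF, the NURF subunit that reads methylated histone H3, read 11.67 and 11.69 in sh-ACTL6A and 11.57 and 11.70 in scramble, and overlapped (0.04, SE 0.12, adjusted p = 0.976). Its 5 probe sets ranged from -0.26 to 0.61, 2 positive and 3 negative. BAZ2A (TIP5), of the nucleolar NoRC complex, was at -0.05 (SE 0.20). RSF1, of the RSF complex, was at -0.04 (SE 0.15) with overlap, and all 6 of its probe sets were negative, at -0.24 to -0.04, 4 of them without overlap.

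Over all 119 member probe sets above the threshold, 72 were positive and 47 negative (60.5% positive, against 52.3% of all 27307 tested probe sets). Groups did not overlap for 32 upward (26.9%, against 18.3% of all) and for 19 downward (16.0%, against 15.1%), beside 33.4% of all in either direction. Limma called 0 of them, against a background of 0%, and at an unadjusted p under 0.05 there were 2 higher (CHD7 and SMARCC1) and 1 lower (SMARCE1), 2.52% against 4.56% of all (2.6% higher and 1.96% lower). Probe sets of 1 gene share their transcripts and are not independent.

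Probe sets of a gene disagreed often. Of the 31 members with at least 2 probe sets above the threshold, 16 had all of them on the same side, 10 positive and 6 negative, and 15 had both signs. The other 10 members had 1 probe set there. Positive throughout were ARID2, BAZ1A, BAZ1B, BCL7A, BICRAL, CHD7, CHD9, PHF10, SMARCA2 and SMARCC1, and negative throughout were CHD1, DPF3, RSF1, SMARCB1, SMARCD1 and SS18. The 20 probe sets under the threshold ranged from -1.79 to 1.40 with a median absolute change of 0.57, against 0.17 for those above it. SMARCA4, CHD6, BAZ1B and BPTF were the 4 genes with the widest spread among their probe sets.

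**Figure D3:**
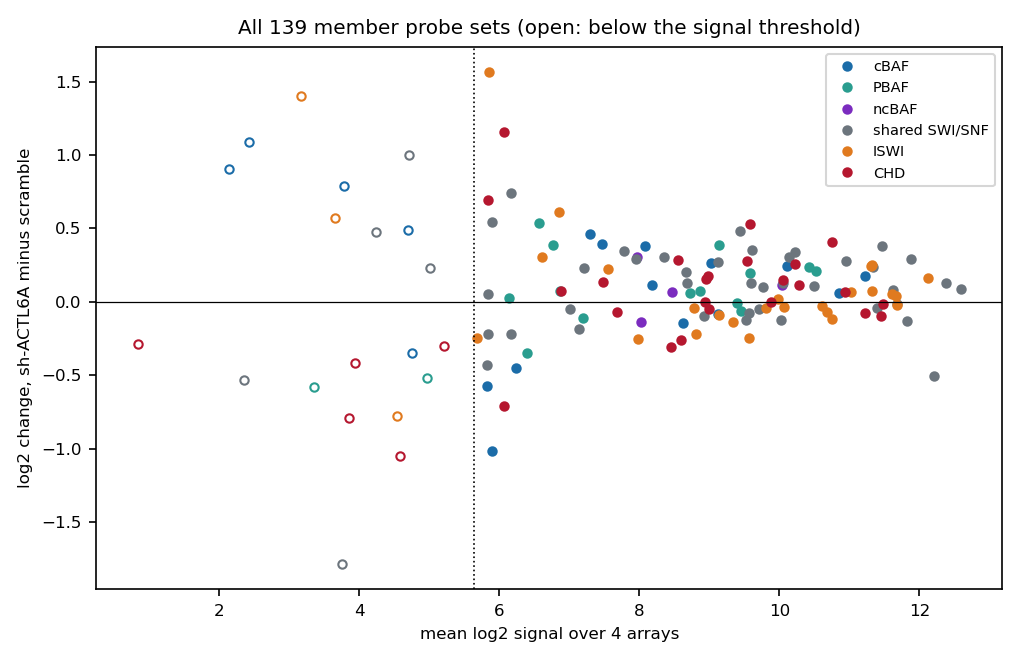
Log2 change (sh-ACTL6A minus scramble) of every member probe set against its mean log2 signal over the 4 arrays, with the signal threshold as a line. The 20 probe sets under the threshold spread from -1.79 to 1.40, and the brighter ones gather near 0.

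Grouped by complex, the class medians lay between 0.04 and 0.18, beside 0.01 for all tested genes. The 5 cBAF subunits had a median change of 0.18 (4 positive, 1 negative). The 4 PBAF subunits had 0.09 (2 and 2), and the 3 ncBAF subunits 0.07 (2 and 1). The 14 shared SWI/SNF subunits had 0.10 (9 and 5), the 7 ISWI subunits 0.04 (4 and 3) and the 8 CHD ATPases 0.13 (5 and 3). Each class spanned changes of both signs, and no class held a called member.

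The class medians also moved between the arrays. Against the scramble mean, sh-ACTL6A replicates 1 and 2 had medians of 0.08 and 0.21 for cBAF, of 0.05 and 0.17 for PBAF and of -0.03 and -0.08 for ncBAF. They were 0.06 and 0.03 for shared subunits, 0.08 and 0.03 for ISWI and -0.01 and 0.14 for CHD. For ncBAF both array medians were therefore negative while the median of the averaged changes was positive, and for CHD the arrays differed in sign. Classes were not tested against each other.

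The class picture by probe set differed in part. Among probe sets above the threshold, 25 were positive and 14 negative for shared subunits (median 0.12), 8 and 5 for cBAF (0.11), 10 and 4 for PBAF (0.07) and 3 and 1 for ncBAF (0.09). They were 14 and 10 for CHD (0.09), and 12 and 13 for ISWI (-0.02), the only class with a negative median at this level. Without overlap, 14 of 39 shared probe sets were higher and 5 lower, 4 of 13 cBAF ones higher and 2 lower, 4 of 14 PBAF ones higher and 1 lower and 0 of 4 ncBAF ones higher and 1 lower. For ISWI 6 of 25 were higher and 5 lower, and for CHD 4 of 24 were higher and 5 lower, beside 18.3% higher and 15.1% lower over all tested probe sets. SMARCA4 had 5 of the 14 higher shared ones and SMARCC1 had 3.

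**Figure D4:**
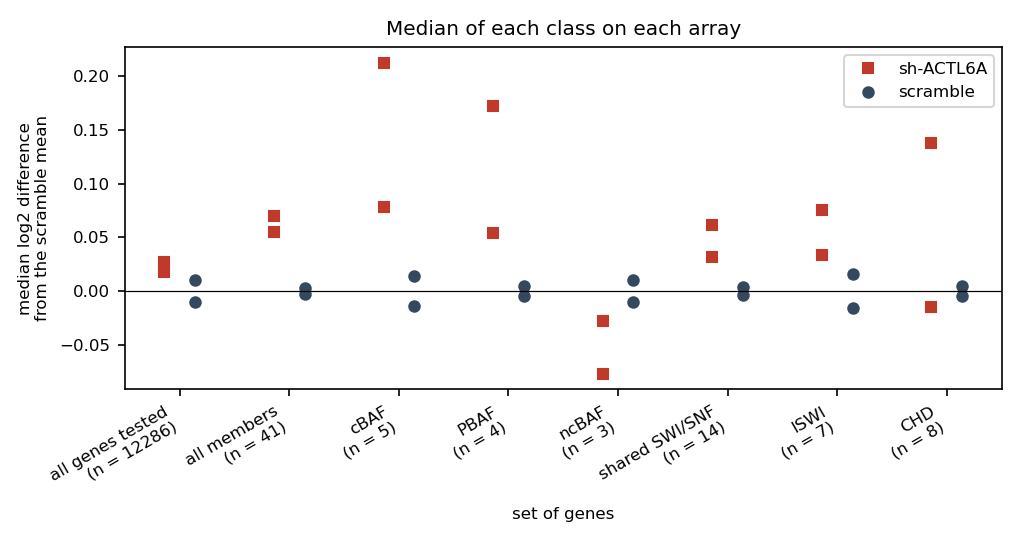
Median log2 difference from the scramble mean (y axis) of the members of each class on each array, sh-ACTL6A left of scramble. The 2 scramble values mirror each other by construction. The sh-ACTL6A medians lie between -0.08 and 0.21.

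For paralogue choice, the log2 difference between 2 paralogues was taken within each array and compared between groups, for 20 pairs. A negative value means that the first gene lost signal relative to the second in sh-ACTL6A cells. With 2 arrays against 2, the exact permutation test cannot go below p = 0.333, so no pair could pass. Groups did not overlap for 5 of the 20 pairs, each at an exact p of 0.333 (0.952 after adjustment over the 20 pairs). Arrays with no group difference would be apart at a rate of 0.333. Of all tested genes, 34.6% were apart in either direction. The median absolute shift was 0.18, and 12 of 20 pairs shifted by less than 0.2.

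In the ATPase pair, SMARCA4 minus SMARCA2 shifted by -0.18: relative to the scramble mean it stood at -0.10 and -0.27 in sh-ACTL6A and at 0.01 and -0.01 in scramble. This shift rests on the brightest probe set of each gene. The median change over probe sets above the threshold was 0.24 for SMARCA4 and 0.23 for SMARCA2. SS18 minus SS18L1 shifted by -0.12, at -0.23 and -0.02 in sh-ACTL6A and -0.02 and 0.02 in scramble, with replicate 2 only just outside the scramble range. BCL7A minus BCL7B shifted by 0.21, at 0.22 and 0.19 in sh-ACTL6A and -0.05 and 0.05 in scramble, the pair with the closest sh-ACTL6A arrays. BAZ1A minus BAZ1B shifted by 0.09, at 0.06 and 0.13 in sh-ACTL6A and 0.01 and -0.01 in scramble.

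The largest shift, of 1.19, was in DPF2 minus DPF3, at 1.73 and 0.65 in sh-ACTL6A and -0.56 and 0.56 in scramble. It rests on the dim DPF3 probe set. BCL7B minus BCL7C (-0.38), SMARCD1 minus SMARCD3 (-0.22) and SMARCD1 minus SMARCD2 (-0.22) followed, and all overlapped. ARID1A minus ARID1B, the ARID choice within cBAF, was at -0.43 and 0.06 in sh-ACTL6A and -0.18 and 0.18 in scramble, and overlapped (-0.18). SMARCC1 minus SMARCC2 (0.21), SMARCA5 minus SMARCA1 (0.08), CHD4 minus CHD3 (-0.03) and BICRA minus BICRAL (-0.20) overlapped too.

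**Figure D5:**
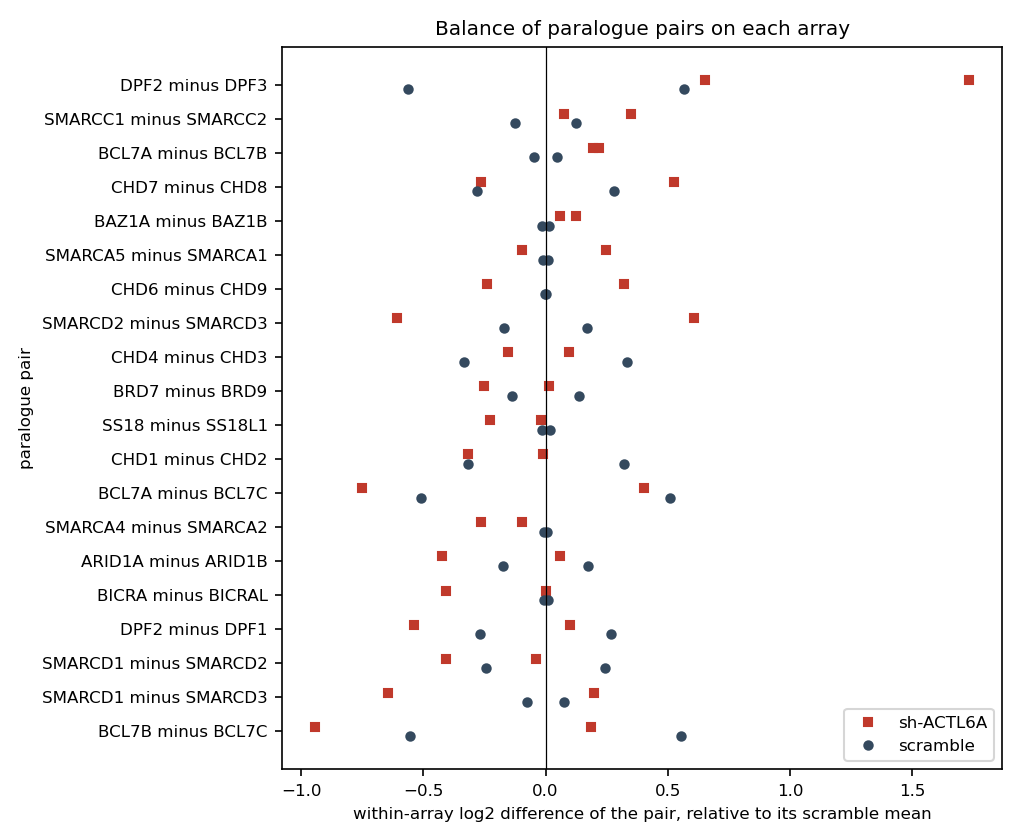
Within-array log2 difference between paralogues, relative to its scramble mean, for the 20 pairs and each array, with sh-ACTL6A (squares) drawn above scramble (circles). Most pairs overlap, and DPF2 minus DPF3 has the largest shift.

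Other genes of these families were counted as well. Of 17 further NuRD and ISWI partner subunits, 15 were tested and 0 were called, with a median change of 0.05. Of 19 other SNF2-family ATPases, 18 were tested and 0 were called, with a median of 0.00. The lowest unadjusted p in the second list was that of RAD54L2, a SUMO-interacting ATPase, at 0.48 (unadjusted p = 0.0314, limma adjusted p = 0.862). In the first, BAZ2B, an ISWI partner, was at 0.35 (limma adjusted p = 0.918). GATAD2A, a NuRD scaffold, was at -0.48 (limma adjusted p = 0.918). It read 11.75 and 10.81 in sh-ACTL6A and 11.76 and 11.77 in scramble, so its difference comes from sh-ACTL6A replicate 2. CHD5, CECR2 and HLTF were below the signal threshold.

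The spread between arrays also differed by group in the members. The SD of the 2 sh-ACTL6A arrays exceeded that of the 2 scramble arrays for 27 of 41 members, with a median SD of 0.15 in sh-ACTL6A against 0.06 in scramble. An SD of 2 values is imprecise, and this difference was not tested. The share of all tested genes with a wider sh-ACTL6A spread was not counted. Over all tested genes the root mean square difference was likewise wider between the sh-ACTL6A arrays (0.44) than between the scramble arrays (0.37). The members' median SD within groups was 0.13, against 0.17 over all tested genes.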

How the data were processed

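Expression was measured in SNU638 cells on 4 arrays. The authors deposited log2 signals of 54675 probe sets, and the submitters' processing notes name MAS5, which scales each array (trimmed linear mean 500.0 with 2% trimmed). For its version, none is given in the sources used here. Dim probe sets are noisy in MAS5. Values were used as deposited. Symbols came from a platform table: of 54613 non-control probe sets, 41091 had 1 symbol, 1801 several and 11721 none. No genome build is named, so no coordinates are given.

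Each gene was represented by its brightest probe set and tested if its mean log2 signal reached the 50th percentile (5.63), which left 12286 genes, or 27307 probe sets when each was tested. Limma 3.58.1 in R 4.3.3 (lmFit, eBayes with an intensity trend, 7.65 moderated degrees of freedom) was run 2-sided with Benjamini-Hochberg adjustment over all features and a threshold of 0.05. It was tested on simulated data. Pairs were compared with an exact permutation test over arrays (Python 3.11.15). The number of arrays limits the precision.

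The members, classes, pairs and lists were chosen with earlier results of these data known. Genes named with array values were ACTL6A, the 12 ATPases, up to 3 members per class by unadjusted p, the 4 pairs with the largest shift and the 4 genes with the least agreeing probe sets. KRT18 and GATAD2A, of other lists, were also given with array values. Both had among the lowest unadjusted p of their list and were picked with their values seen. SMARCC1, RSF1, SS18 and CHD7 probe sets were singled out after their values were seen. The settings varied were normalisation (quantile, median centring) and filtering (no filter, the 75th percentile). The mean of all probe sets and the brightest probe set without a cross-hybridisation suffix were also used. A gene without such a probe set kept its brightest one, and the setting is named below as probe sets lacking a suffix. Further settings were an offset of 4.34 on the linear signal, no trend and the methods' t-test. The replicate number was used as a block, and each array was left out in turn.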

Additional observations from a re-analysis of the deposited data

How the results depend on the processing

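With all 4 arrays, 0 members were called in any setting run. Without sh-ACTL6A replicate 2, 2 genes (SMARCE1 and CHD7) and 1 probe set (SMARCE1) were called, so counts with 1 array left out ranged from 0 to 2 genes and 0 to 1 probe sets. There, the lone array is assumed to vary like the other group. Over all genes, limma called 1 gene with all arrays, 0 after quantile normalisation, without the filter, without the trend, by the methods' t-test and without either scramble array, 401 without sh-ACTL6A replicate 1 and 335 without sh-ACTL6A replicate 2. Over all probe sets it called 0, against 2 after median centring, 169 without sh-ACTL6A replicate 1 and 191 without sh-ACTL6A replicate 2. The filters, the trend, the block and the t-test leave each change as it is. Of the 365 member changes that the other settings could move, 48 turned sign, and 23 of 41 members turned in at least 1 setting. The cause of the reversals was not tested. The stricter filter left 36 members tested.

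The labels number both groups 1 and 2, but 2 pairs cannot show pairing, and the deviations of same-numbered arrays correlated at 0.056 over genes and 0.10 over probe sets. With the replicate number as a block, 0 members were called, ACTL6A stayed at -1.63 (limma adjusted p = 0.00704), and 2 genes and 6 probe sets in all were called, against 1 and 0 without the block.

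The median change over all members was 0.074 after quantile normalisation, 0.12 after median centring, 0.11 with the mean of all probe sets, 0.10 with probe sets lacking a suffix, and 0.040 to 0.11 with 1 array left out. That for cBAF was 0.079 to 0.21 with 1 array left out. That for PBAF was 0.20 with probe sets lacking a suffix and 0.054 to 0.17 with 1 array left out. That for ncBAF was 0.030 (quantile), 0.10 (centring), 0.11 (stricter filter), 0.11 (mean of probe sets) and -0.077 to 0.075 (1 array left out). That for shared subunits was 0.086 (quantile), 0.14 (centring), 0.088 (no suffix) and 0.031 to 0.11 (1 array left out). That for ISWI was 0.073 (centring), 0.15 (mean of probe sets), -0.037 (no suffix) and 0.034 to 0.075 (1 array left out). That for CHD was 0.0041 (mean of probe sets) and -0.015 to 0.19 (1 array left out).

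Signs turned after median centring for BRD7 (0.026), SS18 (0.018), SMARCA1 (0.0078) and CHD1 (0.015). With the mean of all probe sets they turned for BRD7 (0.022), SMARCA2 (-0.069), SMARCB1 (0.12), SMARCC2 (0.00013), SMARCA1 (0.15), SMARCA5 (-0.015), BAZ2A (0.33), CHD2 (-0.27), CHD3 (0.012) and CHD6 (-0.40). With probe sets lacking a suffix they turned for PBRM1 (0.026), BRD7 (0.39), SMARCA1 (0.25), SMARCA5 (-0.12), BPTF (-0.068) and CHD3 (0.074).

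With 1 array left out, changes spanned 0 for ARID1A (-0.16 to 0.27), PBRM1 (-0.15 to 0.027), BRD7 (-0.33 to 0.32), BRD9 (-0.077 to 0.30), BICRAL (-0.030 to 0.16), SMARCB1 (-0.23 to 0.13), SMARCC2 (-0.27 to 0.024), SMARCD1 (-0.21 to 0.017), SMARCD2 (-0.17 to 0.42) and SMARCD3 (-0.18 to 0.43). They also did for BCL7B (-0.0024 to 0.20), BCL7C (-0.0023 to 0.96), SS18 (-0.051 to 0.023), SMARCA1 (-0.21 to 0.16), BAZ2A (-0.21 to 0.12), BPTF (-0.022 to 0.11), RSF1 (-0.12 to 0.043), CHD1 (-0.064 to 0.030), CHD2 (-0.12 to 0.42), CHD3 (-0.42 to 0.32) and CHD6 (-0.16 to 0.47).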
